A study of Homo sapiens with 8 samples.

Results

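ARRDC4, TXNIP, ARRDC1, ARRDC2 and ARRDC3 encode alpha-arrestins, and TXN encodes thioredoxin. MLXIP and MLXIPL encode factors that sense glucose inside the cell, and MLX encodes their shared dimer partner. These 9 genes, of 18014 named on the array, were taken by their symbols in the platform annotation and were covered by 22 of its 44290 features, a feature being 1 numbered spot. All 22 features and all 9 genes had a value on every slide. ARRDC4 was chosen by its fall between MB452 and control pools, the contrast described here. Its values are therefore given with no p-value, and its call past the threshold below is no separate result. The other 8 genes were taken by family and partner, with earlier results of these data known.

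Caco-2 cells, a line from a human colorectal adenocarcinoma that forms an enterocyte-like monolayer, were cultured for 18 days to differentiate. The MB452 pools, A and B, came from wells exposed for 10 hours to Lactobacillus plantarum MB452, suspended at an optical density of 0.9 in M199 medium supplemented with non-essential amino acids. The control pools, A and B, came from wells kept for the same 10 hours in that medium without bacteria. Each pool held RNA of 3 wells, was labelled with Cy5 and was hybridised on a slide of its own against a Cy3 reference made from all wells, and each slide was scanned at a high and at a low detector setting. No other bacterial strain or dose was set beside MB452. The values are log2 ratios to the reference, centred on the median of each column, and the mean of both scans stands for a pool. A ratio holds no level, so neither the expression of these genes nor the markers of an enterocyte could be ranked against other genes. In pooled lysates, fewer cells that express a gene and less RNA per cell cannot be told apart.

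Alpha-arrestins are adaptor proteins with an arrestin fold that join membrane proteins to ubiquitin ligases of the NEDD4 family and so steer the uptake and sorting of transporters and receptors. TXNIP, which binds thioredoxin, and its closest relative ARRDC4 lower glucose uptake at the cell surface. Both genes are known targets of MondoA (the product of MLXIP) and ChREBP (the product of MLXIPL), which bind DNA with MLX at carbohydrate response elements when glucose phosphates accumulate.

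The promoters of ARRDC4 and TXNIP are shown because these were the members past the threshold described below. The sequences are from RefSeq (GRCh38.p14), run 5′ to 3′ along the gene from 250 bases before to 50 bases after the transcription start, and carry matches to searched motifs in capitals. The ARRDC4 window is chr15:97960453-97960752 on the plus strand, and the TXNIP window is chr1:145996530-145996829 on the minus strand, the upstream start of the 2 that RefSeq lists for TXNIP.
ARRDC4: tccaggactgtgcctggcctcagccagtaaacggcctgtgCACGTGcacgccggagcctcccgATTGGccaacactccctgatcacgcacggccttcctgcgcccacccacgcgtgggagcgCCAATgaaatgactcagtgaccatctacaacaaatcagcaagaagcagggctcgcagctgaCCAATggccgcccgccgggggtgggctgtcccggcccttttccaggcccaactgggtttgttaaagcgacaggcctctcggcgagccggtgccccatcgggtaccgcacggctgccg
TXNIP: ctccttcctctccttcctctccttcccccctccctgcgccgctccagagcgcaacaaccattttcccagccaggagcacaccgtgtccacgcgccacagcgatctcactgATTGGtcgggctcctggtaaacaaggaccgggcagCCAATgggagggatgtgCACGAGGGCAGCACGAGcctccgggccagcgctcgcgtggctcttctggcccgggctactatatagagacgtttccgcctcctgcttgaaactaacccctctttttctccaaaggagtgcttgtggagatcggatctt
On both strands, 3 kinds of motif were searched. They were the E-box CACGTG, pairs of E-box-like sequences written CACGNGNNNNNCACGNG (same direction) or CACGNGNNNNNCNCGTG (opposite direction), and the CCAAT box CCAAT, which reads ATTGG on the other strand. An E-box can form part of a pair. In TXNIP a pair in the same direction began 88 bases before the start, with CCAAT boxes at 105 bases and, reversed, at 140 bases before it. In ARRDC4 an E-box began 210 bases before the start, and CCAAT boxes lay at 128 and 67 bases and, reversed, at 187 bases before it. An E-box was in 7.26% of all 35116 promoter windows of this length, the same-direction pair in 0.057%, the opposite-direction pair in 0.0228% and a CCAAT box in 34.6%. The 9 members had 12 windows. Among these an E-box was in 2 (ARRDC4 and MLX), the same-direction pair in 1 (TXNIP) and the opposite-direction pair in none. A CCAAT box was in 7 windows, 1 each of 7 genes. The other TXNIP window, at the downstream start, carried no match to these motifs. A match describes these letters only, and no binding was measured here.

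A gene or feature was called past the threshold of the study when its fold change exceeded 1.2 and its unadjusted moderated p in limma was under 0.05. Of the 9 member genes, 2 were past it, both lower with MB452, and none was higher. These were ARRDC4, picked by this same fall, and TXNIP. Over all 17969 genes tested, 1.91% were past it and 0.868% were past it in the lower direction. Among the 22 member features, 2 were lower, 1 of ARRDC4 and 1 of TXNIP, beside 0.8% of all 42142 features lower and 2.1% past the threshold in either direction. Both MB452 pools lay below both control pools in 7 member features, beside 17.4% of all features. They lay above in 3, and the pools of both groups overlapped in 12. The share of all features in either of these orders was not taken. Since ARRDC4 was picked in this contrast, nothing is read from these counts and shares. The median log2 fold change, MB452 minus control, was -0.14 over the 9 genes and -0.064 without ARRDC4, beside -0.0093 over all genes. After adjustment in limma, 0 genes and 0 features had a p under 0.05, the lowest adjusted p being 0.176 over genes and 0.647 over features, while 1166 genes and 2317 features had an unadjusted p under 0.05. The p-values and standard errors rest on the spread between 2 pools a group, which limma draws toward the spread over all genes or features. Where the pools of a gene lie close together, they therefore reflect mostly that shared spread. The spread between pools is technical as well as between wells. An exact two-sided permutation test of 2 pools against 2 cannot go below 0.333.

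**Figure D1:**
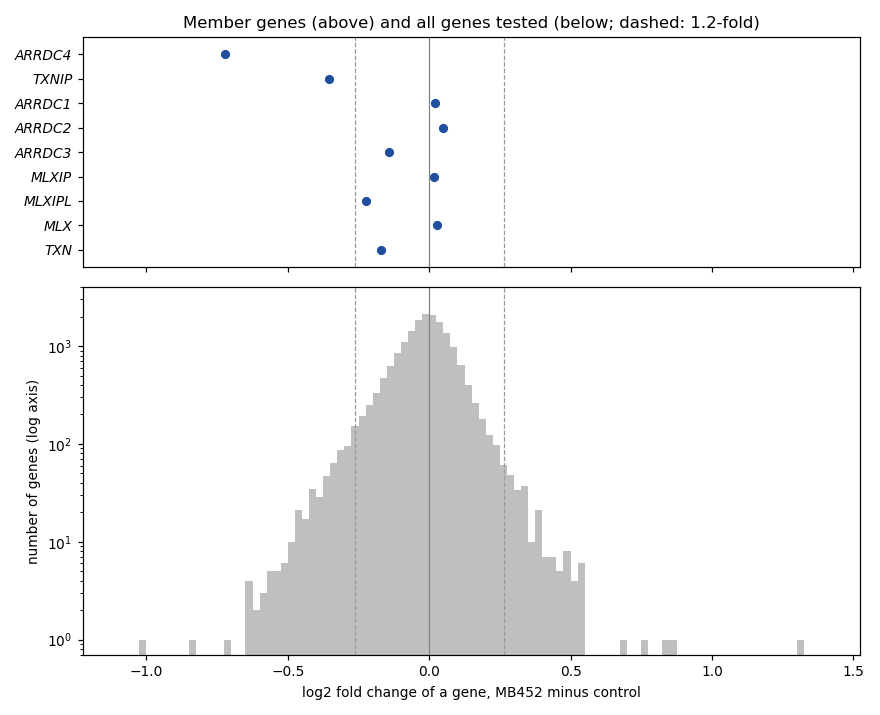
Log2 fold change of each member gene, MB452 minus control (upper panel, 1 point a gene), above the distribution over all 17969 genes tested (lower panel, number of genes on a log axis). ARRDC4 at -0.72 and TXNIP at -0.36 lie left of the dashed line of a 1.2-fold fall, and the other 7 members lie between the lines.

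ARRDC4, which is reported to reduce glucose uptake and to recruit NEDD4-family ligases, was lower in both MB452 pools in both scans. Its single feature stood at -0.26 in MB452 pool A and -0.43 in MB452 pool B, against 0.51 in control pool A and 0.24 in control pool B. The MB452 pools lay below the reference and the control pools above it, with no overlap. The reference mixes RNA of both groups, so these opposite sides are no result apart from the difference itself. The means were -0.35 ± 0.12 in MB452 pools and 0.37 ± 0.19 in control pools (SD, n = 2 each), a log2 fold change of -0.72 (standard error 0.11), or a level 0.607 times that of the control pools. In the high scan the feature read -0.30 and -0.53 in MB452 pools A and B, against 0.47 and 0.22 in control pools A and B. In the low scan it read -0.23 and -0.33 in MB452 pools A and B, against 0.55 and 0.26 in control pools A and B. Each scan by itself therefore showed the same order of pools, with a difference of -0.76 in the high and -0.68 in the low scan. Among genes lower past the threshold, G0S2 at -1.02 was the next gene below ARRDC4 in rank, and ANKRD37 at -0.64 the next above it. The value of ARRDC4 stayed between -0.86 and -0.58 over 16 other ways of processing, both ends being fits without 1 control pool.

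TXNIP, the thioredoxin-interacting alpha-arrestin that promotes the uptake of glucose transporters from the cell surface, fell past the threshold as the mean of 3 features. The gene stood at 0.052 in MB452 pool A and -0.22 in MB452 pool B, against 0.32 in control pool A and 0.22 in control pool B. The groups did not overlap, and MB452 pool B was the lowest. The log2 fold change was -0.36 (standard error 0.10, unadjusted p = 0.0178 and adjusted p = 0.696 in limma). Without MB452 pool B it was -0.22 and no longer past the threshold (unadjusted p = 0.0700, adjusted p = 0.999 in limma).

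The fall of TXNIP was carried by 1 of its 3 features. Feature 38713, annotated with the RefSeq transcript, stood at 0.11 in MB452 pool A and -0.72 in MB452 pool B, against 0.80 in control pool A and 0.58 in control pool B. Both MB452 pools lay below both control pools, and MB452 pool A lay nearer to the control pools than MB452 pool B did. Its log2 fold change was -0.998 (standard error 0.27, unadjusted p = 0.0144 and adjusted p = 0.871 in limma), a level 0.501 times that of the control pools. In the high scan it read 0.35 and -0.59 in MB452 pools A and B, against 0.92 and 0.69 in control pools A and B. In the low scan it read -0.14 and -0.85 in MB452 pools A and B, against 0.68 and 0.47 in control pools A and B. The order of the pools was thus the same in each scan, with differences of -0.93 (high) and -1.07 (low). The MB452 pools differed from each other by 0.83, a larger gap than in 99.99% of all features, for which the median was 0.071. The scans of MB452 pool A differed by 0.49 in this feature, beside a median largest gap between scans of 0.12 over all features. It stayed past the threshold in all 14 other ways of processing run for it, between -1.41 without MB452 pool A and -0.58 without MB452 pool B.

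The other TXNIP features, annotated with GenBank sequences other than the RefSeq transcript, did not pass the threshold. Feature 35557 stood at 0.25 and 0.26 in MB452 pools A and B, against 0.32 and 0.30 in control pools A and B, a difference of -0.054 (standard error 0.059, unadjusted p = 0.400 in limma). Feature 16657 stood at -0.20 and -0.21 in MB452 pools A and B, against -0.17 and -0.21 in control pools A and B, a difference of -0.014 (standard error 0.060, unadjusted p = 0.823 in limma). The place of these 3 probes along the gene was not analysed here.

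**Figure D2:**
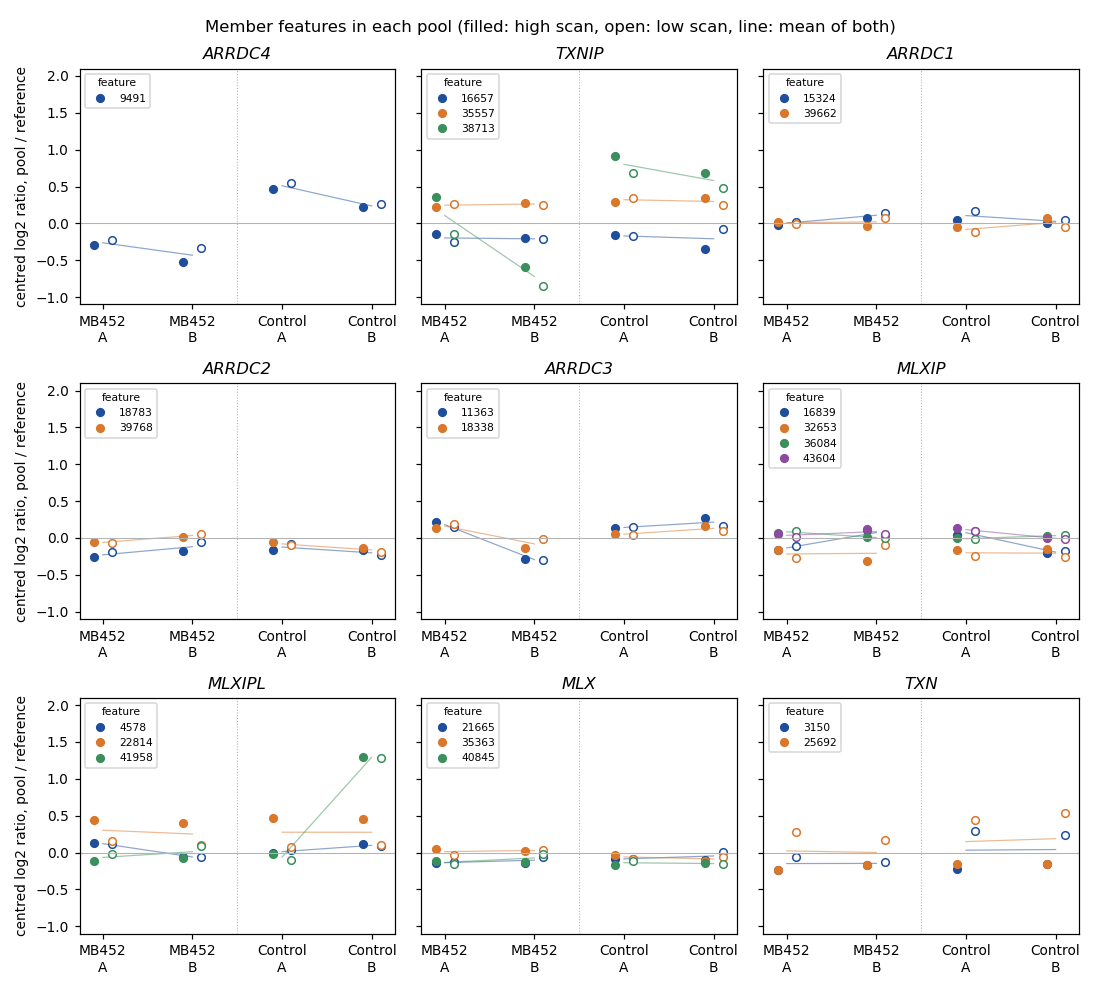
Centred log2 ratio to the reference (vertical axis) of each member feature in each pool, 1 panel a gene and 1 colour a feature, with filled points for the high scan, open points for the low scan and lines joining the 2 pools of a group at the mean of both scans. ARRDC4 and TXNIP feature 38713 are lower in the MB452 pools in both scans, MLXIPL feature 41958 is near 1.29 in control pool B alone, and the filled points of TXN repeat 1 value within a pool except for feature 25692 in control pool A.

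ARRDC3, an alpha-arrestin known for steering beta-adrenergic receptors and integrin beta 4, was not past the threshold and was split by the MB452 pools. The gene stood at 0.17 in MB452 pool A and -0.19 in MB452 pool B, against 0.097 in control pool A and 0.17 in control pool B. MB452 pool B alone lay below the reference, and MB452 pool A lay among the control pools. The log2 fold change was -0.14 (standard error 0.13, unadjusted p = 0.303 and adjusted p = 0.827 in limma). It was -0.32 without MB452 pool A, past the threshold (unadjusted p = 0.0202, adjusted p = 0.978 in limma), and 0.036 without MB452 pool B. Feature 11363 stood at 0.18 and -0.29 in MB452 pools A and B, against 0.14 and 0.22 in control pools A and B. Feature 18338 stood at 0.16 and -0.080 in MB452 pools A and B, against 0.051 and 0.13 in control pools A and B. Both features thus had MB452 pool B lowest, with differences of -0.24 and -0.050. MB452 pool B was also the lower MB452 pool in ARRDC4 and in TXNIP feature 38713. The gap between the MB452 pools in ARRDC3, 0.36, was larger than in 99.2% of all genes, beside 97.4% for TXNIP and 88.7% for ARRDC4.

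ARRDC1, which recruits TSG101 to bud vesicles from the plasma membrane, was not past the threshold and had overlapping pools. It stood at 0.0057 and 0.065 in MB452 pools A and B, against 0.012 and 0.021 in control pools A and B, a difference of 0.019 on the log2 scale (standard error 0.057, unadjusted p = 0.744 in limma). Its features gave -0.010 and 0.049, both within 1 standard error of 0. ARRDC2, an alpha-arrestin adaptor, stood at -0.14 and -0.042 in MB452 pools A and B, against -0.10 and -0.18 in control pools A and B. The pools overlapped, and the log2 fold change was 0.049 (standard error 0.067, unadjusted p = 0.499 in limma). One ARRDC2 feature, 39768, had both MB452 pools above both control pools, by 0.11 (unadjusted p = 0.183 in limma), and the other gave -0.011.

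**Figure D3:**
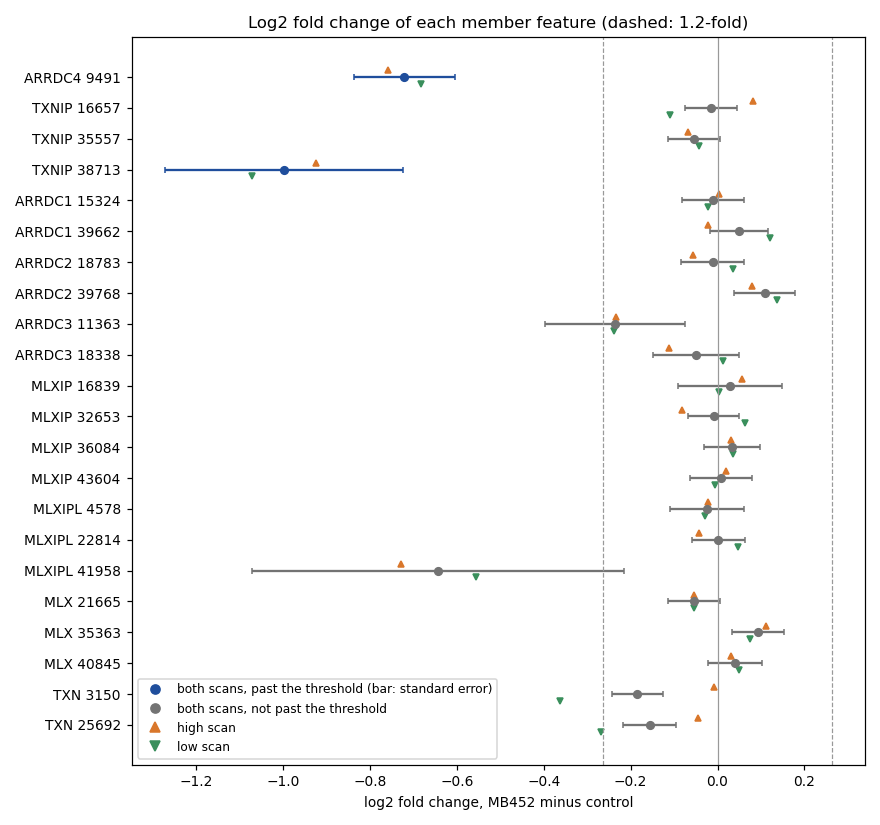
Log2 fold change of each of the 22 member features, MB452 minus control (horizontal axis, circles with bars of 1 standard error from limma), with triangles for each scan by itself and dashed lines at a 1.2-fold change. ARRDC4 at -0.72 and TXNIP 38713 at -0.998 are past the threshold, MLXIPL 41958 at -0.64 is not and has a standard error of 0.43, and the TXN features lie further from 0 in the low than in the high scan.

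MLXIP, which encodes MondoA, was measured by 4 features whose log2 fold changes ran between -0.0086 and 0.033. The gene stood at -0.058 and -0.010 in MB452 pools A and B, against -0.0066 and -0.093 in control pools A and B. The pools overlapped, and the log2 fold change was 0.015 (standard error 0.062, unadjusted p = 0.813 in limma). MLX, the shared dimer partner of MondoA and ChREBP, stood at -0.086 and -0.049 in MB452 pools A and B, against -0.094 and -0.094 in control pools A and B. The MB452 pools lay above the control pools by 0.027 (standard error 0.055, unadjusted p = 0.647 in limma), less than its standard error, and its 3 features ran between -0.054 and 0.093.

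MLXIPL, which encodes ChREBP, had a difference that rested on 1 feature in 1 control pool. Feature 41958 stood at -0.066 and 0.012 in MB452 pools A and B, against -0.061 in control pool A and 1.29 in control pool B. Control pool A lay with the MB452 pools, and control pool B stood apart in both scans, at 1.30 (high) and 1.29 (low). The gap between the control pools, 1.35, was larger than in 99.99% of all features, for which the median was 0.087. Feature 4578, annotated with the same transcript, stood at 0.12 and -0.060 in MB452 pools A and B, against 0.013 and 0.098 in control pools A and B. Feature 22814 stood at 0.30 and 0.25 in MB452 pools A and B, against 0.28 and 0.28 in control pools A and B. Neither repeated the value of control pool B, and their differences were -0.025 and 0.0015. As a gene, MLXIPL differed by -0.22 on the log2 scale (standard error 0.16, unadjusted p = 0.218 and adjusted p = 0.819 in limma). Without control pool A it was -0.46 (adjusted p = 0.0229 in limma), a fit in which control pool B was the only control, and without control pool B it was 0.018. Feature 41958 gave -1.32 (adjusted p = 0.00259 in limma) with control pool A left out and 0.034 with control pool B left out. Control pool B also stood apart from the other pools in KHK, ARRB1 and HECW1, described below, and the part of this pool in these differences was not tested beyond leaving it out.

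TXN, the thioredoxin that TXNIP binds and inhibits, was lower in both MB452 pools but not past the fold of 1.2 when both scans were averaged. It stood at -0.063 and -0.073 in MB452 pools A and B, against 0.091 and 0.11 in control pools A and B. The groups did not overlap, and the log2 fold change was -0.17 (standard error 0.054, unadjusted p = 0.0237 and adjusted p = 0.712 in limma). In the high scan, the same ratio was listed for 1201 to 1534 features within a column, and TXN feature 3150 carried that ratio on 4 of 4 slides and feature 25692 on 3 of 4. Such a value is shared by unrelated genes and holds no difference between pools, and neither feature had it in the low scan. In the low scan feature 3150 stood at -0.064 and -0.13 in MB452 pools A and B, against 0.29 and 0.24 in control pools A and B. Feature 25692 stood at 0.28 and 0.16 in MB452 pools A and B, against 0.45 and 0.53 in control pools A and B. Both features were thus lower in both MB452 pools, with differences of -0.36 and -0.27 on the log2 scale, beside -0.0075 and -0.044 in the high scan. With the low scan only, TXN differed by -0.32 on the log2 scale (standard error 0.066, unadjusted p = 0.00381 and adjusted p = 0.721 in limma), past the threshold. With both scans and repeated ratios set to missing it was -0.24, under 1.2-fold (standard error 0.080, unadjusted p = 0.0280 and adjusted p = 0.698 in limma). With the slide as a random block TXN was -0.17 (standard error 0.26, unadjusted p = 0.528 in limma), not past the threshold. No other member feature carried a repeated ratio in either scan.

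Genes around these members were counted in 7 lists chosen with earlier results known, against 1.91% of all genes past the threshold and a median log2 fold change of -0.0093. In the MAX and MLX network, whose proteins share dimer partners with MondoA and ChREBP, 2 of 10 genes were higher and none was lower, with a median of 0.11. MXI1, a repressor that dimerises with MAX, stood at 0.40 and 0.22 in MB452 pools A and B, against -0.20 and 0.048 in control pools A and B. Its log2 fold change was 0.39 (standard error 0.11, unadjusted p = 0.0146 and adjusted p = 0.693 in limma). MNT, a repressor that binds MAX and MLX, stood at -0.033 and 0.22 in MB452 pools A and B, against -0.20 and -0.19 in control pools A and B, a difference of 0.29 (standard error 0.095, unadjusted p = 0.0279 and adjusted p = 0.723 in limma). As genes, both had MB452 pools above control pools without overlap. The features of MNT were split. Feature 30706 was past the threshold at 0.40 (unadjusted p = 0.00824 and adjusted p = 0.853 in limma). Feature 12925 was not, at 0.18 (unadjusted p = 0.184 in limma), and its pools overlapped. MXI1 lost its call when either pool A was left out, at 0.26 without that of the controls and 0.30 without that of MB452. MNT lost it without MB452 pool B (0.16) and with the low scan only (0.22). MYC (0.19), MAX (0.19) and MGA (0.16), named after their values were seen, had unadjusted p-values of 0.0343, 0.0253 and 0.0410 in limma and fold changes under 1.2. Of the 10 genes of this list, 7 had a positive and 3 a negative difference, the lowest at -0.096.

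Of the known glucose-responsive targets of MondoA and ChREBP other than ARRDC4 and TXNIP, 17 of 18 were measured and none was past the threshold in either direction, with a median of -0.038. KLF10, a Kruppel-like repressor, stood at -0.091 and 0.052 in MB452 pools A and B, against 0.27 and 0.19 in control pools A and B, a difference of -0.25 (standard error 0.073, unadjusted p = 0.0177 and adjusted p = 0.696 in limma). MTTP, which loads lipid onto apolipoprotein B, stood at 0.021 and 0.022 in MB452 pools A and B, against 0.15 and 0.20 in control pools A and B, a difference of -0.15 (standard error 0.056, unadjusted p = 0.0392 in limma). In both genes the MB452 pools lay below the control pools by less than 1.2-fold. KLF10 passed the threshold without control pool B (-0.29), without MB452 pool B (-0.32) and with quantile scaling (-0.27). KHK, the first enzyme of fructose breakdown, stood at -0.019 and -0.026 in MB452 pools A and B, against -0.061 in control pool A and 0.57 in control pool B. Its difference of -0.28 (standard error 0.20, unadjusted p = 0.228 in limma) became 0.039 without control pool B and -0.59 without control pool A.

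Among glucose transporters and hexokinases, 14 of 15 genes were measured and none was past the threshold, with a median of -0.045. HK2, which phosphorylates glucose on entry, stood at 0.017 and 0.088 in MB452 pools A and B, against -0.11 and -0.11 in control pools A and B, a difference of 0.16 (standard error 0.058, unadjusted p = 0.0366 in limma). The scans of HK2 disagreed, at 0.067 in the high and 0.26 in the low scan, and its feature 37481 turned from -0.12 (high) to 0.47 (low). SLC2A1, the transporter GLUT1 whose uptake TXNIP promotes, stood at -0.47 and -0.11 in MB452 pools A and B, against -0.14 and -0.13 in control pools A and B. Its single feature carried the repeated ratio on 4 of 4 slides in the high scan and on 1 of 4, MB452 pool B, in the low scan. The value of MB452 pool B is thus the repeated ratio in both scans and holds no reading of SLC2A1. MB452 pool A was the lowest, and the place of MB452 pool B above both control pools rests on that ratio. The difference of -0.15 (standard error 0.12, unadjusted p = 0.261 in limma) therefore averages a high-scan value that holds no difference. It was -0.30 with the low scan only (standard error 0.20, unadjusted p = 0.191 in limma), where MB452 pool B still stood at its repeated ratio. The difference was 0.024 without MB452 pool A, which rests on that ratio, and -0.33 without MB452 pool B. SLC2A5, the fructose transporter, differed by -0.088 (standard error 0.071, unadjusted p = 0.270 in limma), with overlapping pools.

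In the thioredoxin and peroxiredoxin system, 15 of 16 genes were measured and none was past the threshold, with a median of -0.074. PRDX4, a peroxiredoxin of the endoplasmic reticulum, stood at -0.14 and -0.11 in MB452 pools A and B, against 0.19 and 0.011 in control pools A and B, a difference of -0.22 (standard error 0.077, unadjusted p = 0.0326 in limma). GLRX, a glutaredoxin, stood at 0.24 and 0.29 in MB452 pools A and B, against -0.0072 and 0.12 in control pools A and B, a difference of 0.21 (standard error 0.069, unadjusted p = 0.0261 in limma). The MB452 pools lay below the control pools in PRDX4 and above them in GLRX, without overlap. With the high scan only, PRDX4 was -0.10 (unadjusted p = 0.239 in limma) and GLRX was 0.022 (unadjusted p = 0.760 in limma). GLRX carried no repeated ratio in either scan, and why its scans differ was not tested. With the low scan only, PRDX4 (-0.34) and GLRX (0.40) passed the threshold, as did TXN. Both also passed it with quantile scaling (-0.27 for PRDX4 and 0.29 for GLRX) and without control pool B (-0.31 for PRDX4 and 0.28 for GLRX). PRDX4 carried the repeated ratio in the high scan of 1 slide, and with repeated ratios set to missing it was -0.31 and past the threshold (unadjusted p = 0.00209, adjusted p = 0.612 in limma). SRXN1, which repairs oxidised peroxiredoxins, differed by 0.23 (standard error 0.14, unadjusted p = 0.174 in limma), with overlapping pools.

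The NEDD4-family ligases and ESCRT proteins that alpha-arrestins recruit gave 12 of 13 genes measured, none past the threshold and a median of 0.065. ITCH, a ligase that binds TXNIP, stood at 0.061 and 0.14 in MB452 pools A and B, against -0.15 and -0.10 in control pools A and B. The MB452 pools lay above by 0.23 (standard error 0.061, unadjusted p = 0.0120 and adjusted p = 0.676 in limma), under 1.2-fold as the mean of 2 features. By itself feature 25651 was past the threshold at 0.29 (standard error 0.083, unadjusted p = 0.0175 and adjusted p = 0.871 in limma), and feature 28487 was not at 0.17 (unadjusted p = 0.0391 in limma). As a gene ITCH passed the threshold without MB452 pool A (0.27) and when feature 25651, the more variable, stood for it (0.29). NEDD4 differed by 0.15 (unadjusted p = 0.162 in limma) and HECW1 by 0.14 (unadjusted p = 0.272 in limma), both with overlapping pools, and HECW1 stood at -0.25 in control pool B alone and at -0.022 as a difference without that pool.

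Other arrestin-fold genes gave 7 of 9 measured, none past the threshold and a median of -0.061. ARRB1, a beta-arrestin that desensitises receptors, stood at 0.16 and 0.11 in MB452 pools A and B, against 0.088 in control pool A and 0.65 in control pool B. Its difference of -0.24 (standard error 0.18, unadjusted p = 0.247 in limma) became 0.043 without control pool B and -0.52 without control pool A. The visual arrestins ARR3 and SAG differed by -0.11 and -0.071 (unadjusted p = 0.0980 and 0.244 in limma). Among stress and inflammasome genes linked to TXNIP, 12 of 13 were measured, 1 was higher and none was lower, with a median of -0.011. FOXO1, a transcription factor restrained by insulin signalling, stood at 0.22 and 0.36 in MB452 pools A and B, against 0.0050 and -0.059 in control pools A and B. Both MB452 pools lay above both control pools, by 0.32 (standard error 0.070, unadjusted p = 0.00554 and adjusted p = 0.637 in limma). By itself feature 18509 was past the threshold at 0.43 (unadjusted p = 0.00114 and adjusted p = 0.853 in limma), and feature 23636 was not at 0.20 (unadjusted p = 0.0610 in limma). FOXO1 was under 1.2-fold without MB452 pool B (0.25) and with the low scan only (0.25).

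**Figure D4:**
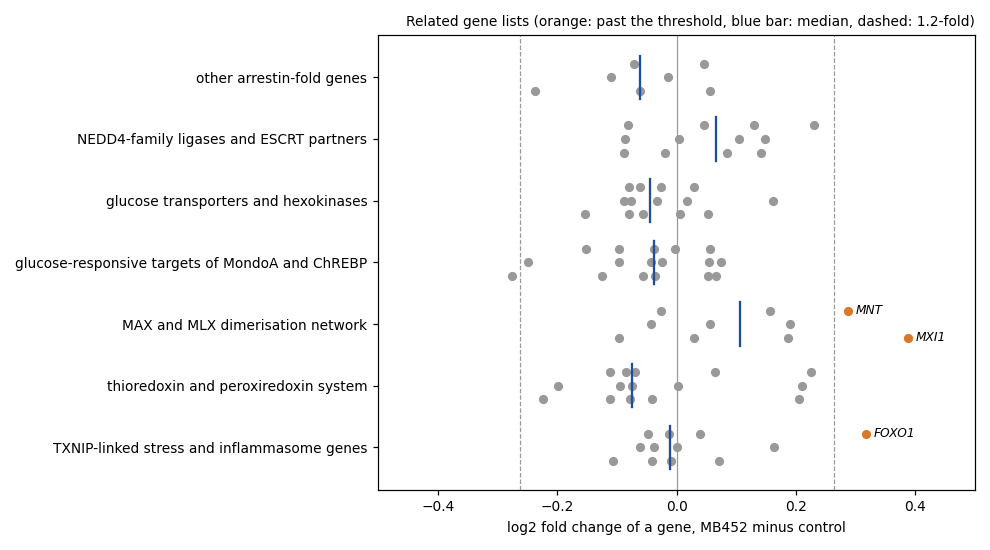
Log2 fold change, MB452 minus control (horizontal axis), of each measured gene of the 7 related lists (1 row a list, points spread vertically for legibility), with orange points past the threshold, a blue bar at the median of each list and dashed lines at a 1.2-fold change. MXI1 at 0.39, MNT at 0.29 and FOXO1 at 0.32 are the 3 genes past the threshold, all higher with MB452.

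Likeness to ARRDC4 and TXNIP was measured by the root mean square difference of the 4 pool values over the 17969 genes, and is a description over 4 slides that share a reference. The genes closest to ARRDC4 were FABP5 (0.0927), a fatty acid binding protein, BIRC5 (0.147), the mitotic protein survivin, DUSP23 (0.180), a phosphatase, LMNB1 (0.188), a protein of the nuclear lamina, and HMGB3P1 (0.190). HMGB3P1 is a pseudogene, and its signal may include RNA of the parent gene. FABP5 stood at -0.20 and -0.33 in MB452 pools A and B, against 0.38 and 0.28 in control pools A and B. In all 5 genes both MB452 pools lay below the reference and both control pools above it, with differences between -0.59 and -0.43. These genes were picked by the same 4 values, so the shared order of pools follows from the choice and is no separate result. The genes closest to TXNIP were CCNE1 (0.0509), a cyclin of the G1/S transition, DNAJC9 (0.0568), a co-chaperone, C1S (0.0586), a complement protease, LSM5 (0.0589), an RNA-processing protein, and MRPL12 (0.0598), a mitochondrial ribosomal protein. CCNE1 stood at 0.092 and -0.14 in MB452 pools A and B, against 0.28 and 0.22 in control pools A and B. By the same choice MB452 pool B was the lowest pool in these 5 genes, as in TXNIP, and their differences ran between -0.35 and -0.26.

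**Figure D5:**
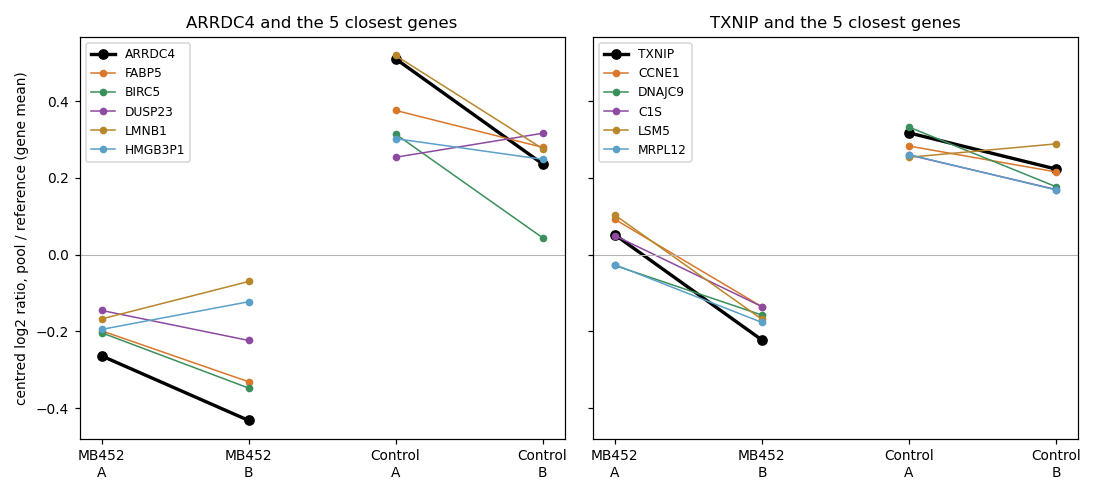
Centred log2 ratio to the reference (vertical axis, mean over the features of a gene) in each pool for ARRDC4 (left, black) and TXNIP (right, black) with the 5 genes nearest to each in root mean square difference over the 4 pools (colours). The lines join the pools of 1 group, and every gene shown has both MB452 pools below both control pools, an order that follows from the choice by likeness.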

How the data were processed

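Members and gene lists were chosen with earlier results of these data known. RNA of 2 MB452 pools and 2 control pools was hybridised on 4 two-colour Agilent 44k human arrays. The authors quantified the scans in GenePix, removed poor spots by hand, subtracted no background and normalised by loess in limma (version not given in the sources used here). Values as deposited were taken for log2 ratios, Cy5 (pool) over Cy3 (reference). Their log base is not stated, which sets the scale of every fold change. The authors' combined scans and spot intensities were not used here, and the number of slides limits the precision.

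All 8 columns were used and 0 left out. In limma 3.58.1 (R 4.3.3) columns were centred on their medians, which lay between 0.0046 and 0.017, and scans averaged. The 42142 features present on all 4 slides were fitted by lmFit and eBayes without covariates, and differences are MB452 minus control. Of 44290 features, 29033 had 1 symbol, 97 several and 15160 none, and only those with 1 named a gene. Symbols were updated through RefSeq (28992 matched), and features of a gene averaged (avereps). Calls used a fold over 1.2 and an unadjusted p under 0.05, with p-values adjusted by Benjamini-Hochberg over every feature or gene tested.

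Named were all members, up to 4 genes past the threshold in each list or, where none passed, up to 3 by size of change, and the 5 genes nearest to ARRDC4 and to TXNIP. MYC, MAX and MGA were added after their values were seen. All 9 members matched a RefSeq promoter. The fit was tested on simulated data. Alternatives covered scans, centring, scaling, repeated ratios, features, blocks, fold minimum and each pool left out.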

Additional observations from a re-analysis of the deposited data

How the results depend on the processing

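ARRDC4 and TXNIP kept their direction under all 16 alternatives run for them. TXNIP lost its call only without MB452 pool B among these, and under a fold minimum of 1.5, which left 1 member gene, ARRDC4. Leaving out 1 pool in turn, where the lone pool of a group was assumed to vary like the other group, gave 1 to 3 member genes past the threshold. The third was ARRDC3 without MB452 pool A and MLXIPL without control pool A. Past the threshold were 1166 genes and 2317 features with no fold minimum, 7 genes and 22 features at a fold of 1.5, and 583 genes when the most variable feature stood for a gene. With 1 pool left out there were 376 to 1685 genes and 1166 to 4517 features, the highest counts without control pool A. The main counts were 343 genes (187 higher, 156 lower) and 883 features (546 higher, 337 lower). The split of genes was 152 higher and 239 lower with the low scan only, 153 and 243 with that scan and repeated ratios set to missing, and 314 higher and 178 lower with the high scan only.

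Directions turned in members and list genes that were not past the threshold. With 1 pool left out, ARRDC1 ran between -0.010 and 0.049, ARRDC2 between -0.0024 and 0.10, ARRDC3 between -0.32 and 0.036, MLXIP between -0.028 and 0.058, MLXIPL between -0.46 and 0.018 and its feature 41958 between -1.32 and 0.034. In the same fits ARRB1 ran between -0.52 and 0.043, HECW1 between -0.022 and 0.30, SLC2A1 between -0.33 and 0.024 and KHK between -0.59 and 0.039. The 0.024 of SLC2A1 rests on repeated ratios in MB452 pool B. ARRDC1 was -0.0095 in the high scan and -0.010 by its most variable feature, and MLX was -0.017 by the median over features. The cause was not tested.

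The labels do not say whether the letters A and B pair the pools, and the main fit did not pair them. The deviations of same-lettered pools from their group means correlated at -0.017 over 17969 genes. This value cannot show whether same-lettered pools were handled together. With the letter as a replicate block, 446 genes (192 higher, 254 lower) and 1061 features were past the threshold and member genes stayed at 2, with TXNIP at -0.36 (unadjusted p = 0.00545, adjusted p = 0.827 in limma). With the slide as a random block over both scans, 374 genes (154 higher, 220 lower) and 988 features (423 higher, 565 lower) were past it. Repeated ratios set to missing with the low scan only was chosen after seeing the data, as were the alternatives for list genes. It gave -0.32 for TXN, beside -0.24 and no call with repeated ratios set to missing in both scans. The 2 pools a group, the repeated ratios in high scans and the absence of intensities limit what small differences can show.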
